A study of Mus musculus with 4 samples.

Results

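Malat1, Neat1, Miat, Rmst, Sox2ot, Pantr1, Gas5 and Tug1 are 8 long noncoding RNA (lncRNA) genes, chosen by name for their known places in the nucleus or in neural development. They are 8 of the 55602 genes in the count table of day 12 neural precursor cells, and of 9813 genes that GENCODE classes as lncRNAs. The cells came from JB1, a mouse embryonic stem cell (ESC) line that is the F1 hybrid of a JF1 mother and a C57BL/6 (B6) father, so that reads over strain differences can be given to the maternal or the paternal allele. Wild-type JB1 cells (WT) and a JB1-derived line without functional Zfp57 (Zfp57-/-), the gene of a zinc finger protein that keeps imprinting control regions methylated, were differentiated for 12 days in serum-free medium. Both received 1 µM cyclopamine, an inhibitor of sonic hedgehog signalling, from day 2 to day 10, and each genotype had 2 biological replicates. Each genotype was thus 1 cell line, and differences between the lines that do not come from Zfp57 cannot be told apart from the genotype.

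Long noncoding RNAs of this kind do not encode protein and often act where they are made. Malat1 and Neat1 lie side by side on 1 chromosome and stay in the nucleus: Malat1 RNA gathers in nuclear speckles, which hold splicing factors, and Neat1 RNA is the scaffold of paraspeckles. Miat (also called Gomafu) forms its own nuclear spots in neurons. Rmst, Sox2ot and Pantr1 are transcribed in the developing nervous system, the last beside genes of neural transcription factors; Rmst RNA has been described as a partner of SOX2 in neurogenesis. Gas5 carries small nucleolar RNAs (snoRNAs) in its introns and Tug1 is made in most tissues.

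RNA was ribosome-depleted rather than poly(A)-selected, and counting used strand, so nuclear transcripts and transcripts without a poly(A) tail were measured. The 4 libraries held 7663520 to 10337082 counted fragments, of which 36.1% to 37.0% could be given to an allele. Zfp57 itself was counted 392 and 249 times in the WT replicates and 158 and 144 times in the Zfp57-/- ones (log2 fold change -1.19, standard error 0.32, edgeR adjusted p = 0.0225), so its counts were lower but not absent; whether the counted exons lie outside the deletion was not checked here. As for the labelled cell type, all 6 neural progenitor and all 6 neuronal markers were detected in WT cells, where the summed level of the former was 1380 and 1625 CPM (normalised counts per 1000000 counts) and that of the latter 1354 and 1727 CPM. In Zfp57-/- cells the progenitor sum was 961 and 954 CPM, with Hes5 and Fabp7 among 5 of 6 markers that fell, and the neuronal sum was 204 and 161 CPM, with Dcx and Map2 among 4 of 6 that fell. The sum of 6 pluripotency markers was 3.10 and 7.54 CPM in WT cells, with Nanog at 0 in both replicates, and 1013 and 913 CPM in Zfp57-/- cells, where 6 of 6 rose. Of the markers of other cells, edgeR called 3 of 4 for glia (1 higher, 2 lower), 3 of 4 for endothelium (2 higher, 1 lower) and 0 of 6 for endoderm (2 at an unadjusted p under 0.05, 0 called by DESeq2); the endoderm sum was 324 and 489 CPM in WT and 446 and 610 CPM in Zfp57-/- cells. Over all genes tested, edgeR called 13% higher and 14.6% lower in Zfp57-/- cells. In such bulk samples, fewer cells of a type and less RNA per cell cannot be told apart, and the part of these cell type differences in the results below was not tested.

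Promoter sequence from RefSeq (GRCm38.p6, 250 bases before to 50 after each annotated start) was given for 4 of the 8 genes: Miat, Gas5, Tug1 and Malat1. The windows of Miat, which fell, and of Gas5, which rose, are shown 5′ to 3′ because ZFP57 is known to bind the hexamer TGCCGC when its CpG is methylated. Capitals mark the hexamers TGCCGC and GGCCGC and their reverse complements GCGGCA and GCGGCC.
Miat, chr5:112228899-112229198, minus strand: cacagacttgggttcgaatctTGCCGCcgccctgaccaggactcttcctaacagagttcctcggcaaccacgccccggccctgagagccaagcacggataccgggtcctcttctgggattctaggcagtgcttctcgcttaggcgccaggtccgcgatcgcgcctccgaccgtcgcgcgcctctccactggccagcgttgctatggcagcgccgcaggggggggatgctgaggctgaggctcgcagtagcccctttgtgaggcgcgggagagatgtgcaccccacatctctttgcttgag
Gas5, chr1:161034916-161035215, plus strand: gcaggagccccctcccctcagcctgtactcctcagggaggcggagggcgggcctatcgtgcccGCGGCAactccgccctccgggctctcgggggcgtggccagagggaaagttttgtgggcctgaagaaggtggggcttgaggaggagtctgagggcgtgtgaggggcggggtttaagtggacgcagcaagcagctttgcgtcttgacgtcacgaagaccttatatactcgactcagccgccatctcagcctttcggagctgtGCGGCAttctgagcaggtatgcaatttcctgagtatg
The Miat window held 1 such hexamer, this Gas5 window 2, the other annotated Gas5 window 1, the Tug1 window 1 and the Malat1 window 0. Of all 32851 windows in the table, 26.8% held at least 1, so these matches are common and say nothing of binding. The methylation of these windows was not analysed here.

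Per kilobase of exon, the 8 RNAs spanned a wide range. In WT cells the order was Malat1, Gas5, Miat, Tug1, Rmst, Pantr1, Neat1 and Sox2ot. Malat1 stood at 2186 and 669 length-scaled CPM (CPM per kilobase of exon) in the WT replicates, at the 99.9th percentile of all genes tested. Sox2ot, the lowest, stood at 2.25 and 0.832. Several neighbours in this order had overlapping replicates: Gas5 with Miat, Miat with Tug1, Rmst with Pantr1, and Neat1 with Sox2ot. In Zfp57-/- cells the order was Malat1, Gas5, Tug1, Neat1, Miat, Sox2ot, Pantr1 and Rmst. There, only Sox2ot with Pantr1 and Pantr1 with Rmst overlapped among adjacent pairs. Rmst went from 22.1 and 8.27 length-scaled CPM in WT to 0.304 and 0.165 in Zfp57-/- cells, from the fifth place to the last. Neat1 moved from the seventh place to the fourth.

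**Figure D1:**
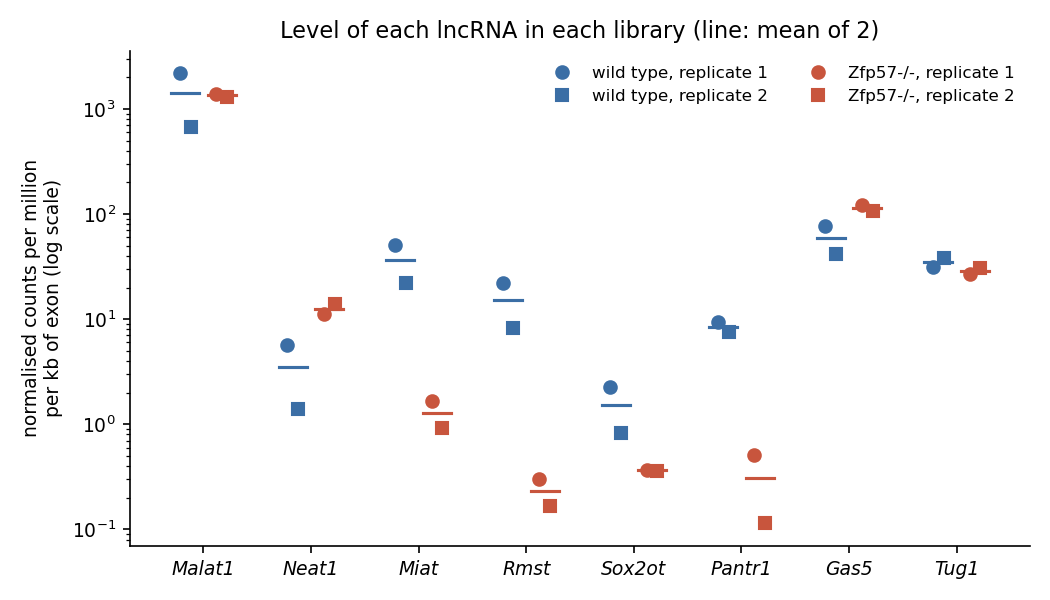
Level of each lncRNA in CPM per kilobase of exon (log axis) in the 2 WT (blue) and 2 Zfp57-/- (red) libraries; circles are replicate 1, squares replicate 2 and lines the mean. Miat, Rmst, Sox2ot and Pantr1 sit lower in both Zfp57-/- libraries, Neat1 and Gas5 higher, and the WT replicates of Malat1 and Neat1 lie far apart.

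The 4 lncRNAs best known from neural cells fell in Zfp57-/- cells, Gas5 rose, and Malat1, Neat1 and Tug1 did not pass the test. In all, 5 of the 8 were called by edgeR (1 higher and 4 lower), against 27.6% of the 19995 genes tested (13% called higher and 14.6% lower) and 17% of the 1772 lncRNA-type genes tested. The median log2 fold change of the 8 was -1.17, that of all genes tested -0.010 and that of the lncRNA-type genes -0.40. The normalised counts of the genotypes did not overlap for 7 of the 8, Malat1 being the exception, but this also held for 66.3% of all genes.

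Rmst had the largest change of the 8. It was counted 1324 and 643 times in the WT replicates and 21 and 12 times in the Zfp57-/- ones, which is 164 and 61.4 CPM against 2.25 and 1.23 CPM. The log2 fold change was -6.01 (standard error 0.53, edgeR adjusted p = 3.8e-05). Rmst (ENSMUSG00000112117.1) lies on chromosome 10 from 92071037 to 92165170, minus strand, in 14 exon blocks. A small RNA gene that shares 50 bases with its exons, Gm27544, was counted 53 and 38 times in WT cells and 0 times in both Zfp57-/- replicates. The nearest coding gene, Nedd1, a centrosome protein gene 519576 bases away, stood at 52.2 ± 7.23 CPM in WT and 49.5 ± 4.21 CPM in Zfp57-/- cells (SD, n = 2; log2 fold change -0.08, edgeR adjusted p = 0.806).

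Miat was the most abundant of the 4 neural RNAs in WT cells. Its counts were 3805 and 2173 in WT and 145 and 83 in Zfp57-/- cells, or 471 and 207 CPM against 15.6 and 8.48 CPM. Every WT value was more than 10 times every Zfp57-/- value, and the log2 fold change was -4.82 (standard error 0.44, edgeR adjusted p = 4.7e-05). Miat (ENSMUSG00000097767.8) lies on chromosome 5 from 112213228 to 112229395, minus strand, with 6 exon blocks. Its coding neighbours Cryba4 and Crybb1, which encode lens crystallins, had at most 1 count in any library.

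Pantr1 was counted 336 and 351 times in WT cells and 21 and 5 times in Zfp57-/- cells. In CPM these are 41.6 and 33.5 against 2.25 and 0.511, so the WT replicates were close and the low Zfp57-/- values varied most. The log2 fold change was -4.76 (standard error 0.46, edgeR adjusted p = 7.1e-05). Pantr1 (ENSMUSG00000060424.14) lies on chromosome 1 from 42590782 to 42694842 on the minus strand, and its annotated start is 926 bases from that of Pou3f3 on the opposite strand, the gene of a POU-domain factor of upper-layer cortical neurons. Pou3f3 fell with it: its counts were 1162 and 1188 in WT and 51 and 48 in Zfp57-/- cells (log2 fold change -4.63, standard error 0.24, edgeR adjusted p = 3.4e-06). Most other surrounding genes did not share this direction. Of the 15 nearest genes with a mean of at least 100 counts, Pou3f3 included, 5 were called higher and 1 lower, which was Pou3f3 itself. Their median log2 fold change was 0.44, and the median over chromosome 1 was 0.35. For the 15 genes nearest to Gas5, on the same chromosome, it was -0.19.

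Sox2ot fell less. Its counts were 211 and 101 in WT and 40 and 41 in Zfp57-/- cells, or 26.1 and 9.64 CPM against 4.29 and 4.19 CPM. The WT replicates differed 2.71-fold and the Zfp57-/- ones hardly at all, and the log2 fold change was -2.06 (standard error 0.45, edgeR adjusted p = 0.00827). Sox2ot (ENSMUSG00000105265.4, chromosome 3 from 34104270 to 34682619, plus strand) contains Sox2, the gene of a factor shared by pluripotent and neural progenitor cells, between its exons and on the same strand, with no exon in common. Sox2 did not fall with it: it stood at 111 ± 10.8 CPM in WT and 156 ± 16.8 CPM in Zfp57-/- cells (SD, n = 2; log2 fold change 0.49, edgeR adjusted p = 0.0881).

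For these 4 RNAs the direction and the call held under each scaling, filter and tool tried and without each library. The log2 fold change ranged from -5.67 to -4.14 for Miat, from -6.89 to -5.16 for Rmst, from -6.16 to -4.05 for Pantr1 and from -2.95 to -1.21 for Sox2ot. The largest edgeR or DESeq2 adjusted p in this range was 0.0124, for Sox2ot.

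**Figure D2:**
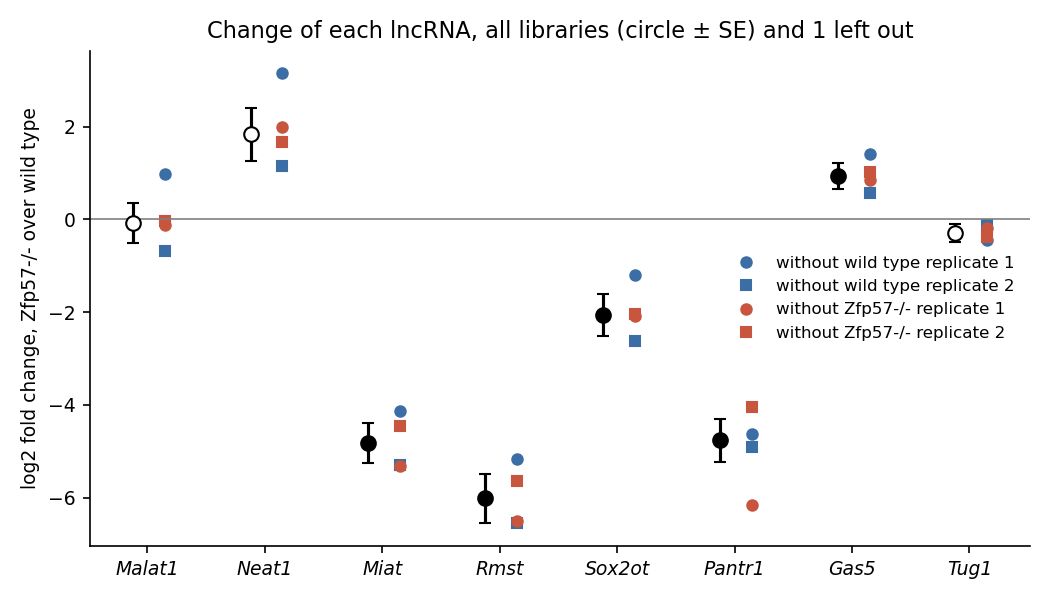
Log2 fold change of Zfp57-/- over WT cells for each lncRNA, with all 4 libraries (black, ± standard error; filled where the adjusted p was under 0.05) and with 1 library left out (blue: a WT library, red: a Zfp57-/- library). Malat1 turns from -0.08 to 0.99 without WT replicate 1 and to -0.69 without WT replicate 2, whereas the 4 neural RNAs stay below 0.

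Gas5 was the only one of the 8 called higher. It was counted 2342 and 1646 times in WT and 4238 and 3927 times in Zfp57-/- cells, or 290 and 157 CPM against 455 and 401 CPM. Both Zfp57-/- values lay above both WT values, and the log2 fold change was 0.94 (standard error 0.27, edgeR adjusted p = 0.0298). The call depended on the scale and on single libraries: with Actb, a cytoskeletal gene often used as a reference, as the scale, the log2 fold change was 0.12 (adjusted p = 0.907), and without Zfp57-/- replicate 1 or 2 the adjusted p was 0.148 or 0.0562. The Actb scale moved the median of all genes to -0.68, and relative to that median Gas5 was 0.80 higher, against 0.95 under the main scale. Gas5 (ENSMUSG00000053332.13, chromosome 1 from 161034422 to 161038539, plus strand) has 3 exon blocks that together cover 3760 bases, so most of its introns count as exon in some transcript. The snoRNA genes inside it on the same strand had 0 counts each in every library. Each shares 60 to 84 bases with the Gas5 exon blocks, so these 0 counts do not show whether fragments of the snoRNAs were present. Zbtb37, a zinc finger gene whose start overlaps it on the opposite strand with no exon in common, stood at 96.5 ± 20.6 CPM in WT and 67.8 ± 3.75 CPM in Zfp57-/- cells (SD, n = 2; log2 fold change -0.51, edgeR adjusted p = 0.0978).

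Neat1 was higher in both Zfp57-/- libraries but missed the threshold. Its counts were 949 and 301 in WT and 2160 and 2828 in Zfp57-/- cells, or 118 and 28.7 CPM against 232 and 289 CPM. The WT replicates differed 4.09-fold, more than 99.7% of all genes with a mean of at least 100 counts, and the log2 fold change was 1.84 (standard error 0.57, edgeR adjusted p = 0.0513). It passed when any 1 library was left out, with log2 fold changes from 1.15 to 3.15, and it passed with DESeq2 size factors (adjusted p = 0.0495), with a stricter filter (0.0386), with a length correction (0.00219) and with a term for the replicate number (0.0157), though not with the DESeq2 test (0.118), upper-quartile scaling (0.0929), the Actb scale (0.258) or no filter (0.399). Neat1 (ENSMUSG00000092274.3) is 1 exon block of 20771 bases on chromosome 19 from 5824708 to 5845478, minus strand. Frmd8, the nearest coding gene at 4224 bases, had 170 and 292 counts in WT and 501 and 497 in Zfp57-/- cells and rose (log2 fold change 1.09, standard error 0.22, edgeR adjusted p = 0.00483). The Frmd8 call was lost without Zfp57-/- replicate 1 (1.05, adjusted p = 0.0554) and with the Actb scale (0.48, adjusted p = 0.567), on which it was 1.16 above the median of all genes, against 1.10 on the main scale.

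Malat1 was by far the most abundant of the 8, with 1.61% and 0.479% of all counted fragments in the WT replicates and 0.949% and 0.864% in the Zfp57-/- ones. Its counts were 123271 and 48963 in WT and 90624 and 89331 in Zfp57-/- cells, or 15265 and 4674 CPM against 9727 and 9131 CPM. Both Zfp57-/- values fell between the WT values, and the log2 fold change was -0.08 (standard error 0.43, edgeR adjusted p = 0.909). The comparison rested on which WT library was used: without WT replicate 1 it was 0.99 (adjusted p = 6.2e-12), and without WT replicate 2 it was -0.69 (adjusted p = 2.0e-06). Malat1 (ENSMUSG00000092341.2, 1 exon block of 6983 bases) lies on chromosome 19 from 5795690 to 5802672, minus strand.

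Tug1 was the steadiest. It was counted 2465 and 3918 times in WT and 2425 and 2906 times in Zfp57-/- cells, or 305 and 374 CPM against 260 and 297 CPM, and the log2 fold change was -0.29 (standard error 0.20, edgeR adjusted p = 0.316). It was called only without WT replicate 1 (log2 fold change -0.45, adjusted p = 0.00165). Tug1 (ENSMUSG00000056579.18, chromosome 11 from 3639785 to 3649673, minus strand) begins inside the first bases of Morc2a on the opposite strand. Morc2a, a chromatin factor gene, stood at 107 ± 12.3 CPM in WT and 130 ± 0.702 CPM in Zfp57-/- cells (SD, n = 2; log2 fold change 0.27, edgeR adjusted p = 0.318).

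The WT replicates differed more in these RNAs than in most genes. Of the 8, 7 were higher in WT replicate 1, and 5 (Malat1, Neat1, Miat, Rmst and Sox2ot) lay beyond the 95th percentile of the replicate difference over 10105 genes with a mean of at least 100 counts. The ratio of replicate 1 over replicate 2 was 4.09 for Neat1, 3.27 for Malat1, 2.71 for Sox2ot, 2.67 for Rmst, 2.27 for Miat, 1.85 for Gas5, 1.24 for Pantr1 and 0.816 for Tug1. Other lncRNAs shared this direction. Over 108 lncRNA-type genes the median log2 ratio of WT replicate 1 over 2 was 0.63, and over 9836 protein-coding genes it was -0.16. In Zfp57-/- cells the same medians were 0.17 and -0.033. What sets WT replicate 1 apart was not tested.

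**Figure D3:**
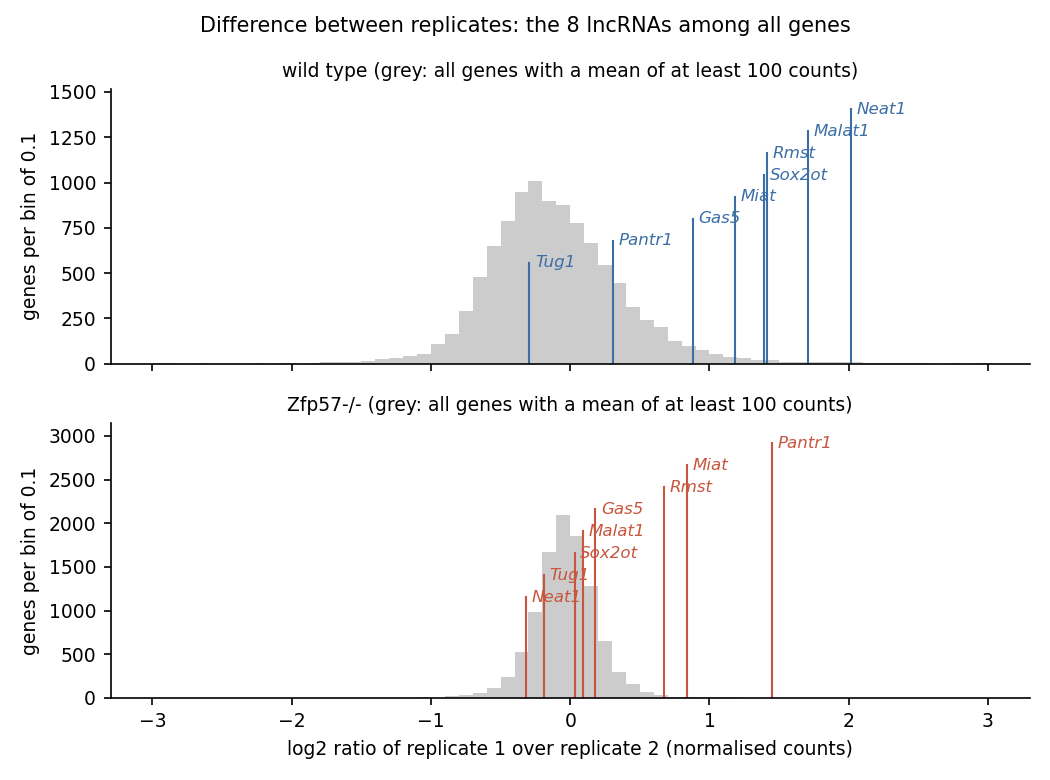
Log2 ratio of replicate 1 over replicate 2 for the 8 lncRNAs (coloured lines; their heights only separate the names) over the distribution of 10105 genes (grey bars, genes per bin of 0.1), in WT (top) and Zfp57-/- (bottom) cells. In WT cells 7 of the 8 lie to the right of 0, Neat1 furthest, and in Zfp57-/- cells Pantr1, Miat and Rmst, which are low there, lie furthest out.

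The allele tables tell whether a change came from the maternal JF1 or the paternal B6 copy. The allelic ratio is JF1 reads over JF1 plus B6 reads, so 0.5 means equal shares. Between 46.3% (Tug1) and 72.2% (Gas5) of the fragments of 7 of the 8 genes carried an allele. Rmst had 0 allelic fragments of 2000, so its copies were not distinguishable here. Such a lack was found in 998 of 12801 autosomal genes with at least 100 fragments (7.80%). It ran on beyond Rmst: Nedd1, with 1926 fragments, also had 0 allelic ones. The remaining 7 genes passed the filter on allelic reads, which was set in the WT libraries.

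Miat, Pantr1 and Gas5 changed on both alleles. Miat had 1392 and 751 JF1 reads and 1251 and 725 B6 reads in the WT replicates, against 65 and 27 JF1 reads and 52 and 26 B6 reads in the Zfp57-/- ones. The log2 fold change was -4.65 on the JF1 allele (edgeR adjusted p = 0.000247) and -4.76 on the B6 allele (0.000146). Pantr1 had 49 and 61 JF1 reads and 94 and 116 B6 reads in WT cells, and 4 and 2 JF1 reads and 6 and 1 B6 reads in Zfp57-/- cells. The corresponding changes were -4.18 (edgeR adjusted p = 0.000209) and -4.90 (2.4e-05). Gas5 had 677 and 504 JF1 reads and 982 and 644 B6 reads in WT cells, against 1313 and 1231 JF1 reads and 1748 and 1673 B6 reads in Zfp57-/- cells. Its changes were 1.02 (edgeR adjusted p = 0.0341) and 0.97 (0.0371), and both Gas5 calls were lost without either Zfp57-/- replicate (adjusted p from 0.216 to 0.297).

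Neat1 rose on both alleles, and Sox2ot fell on both but was called on the B6 allele only. Neat1 had 170 and 95 JF1 reads in WT and 530 and 780 in Zfp57-/- cells (log2 fold change 2.20, edgeR adjusted p = 0.0174). On the B6 allele it had 335 and 91 reads against 682 and 843 (1.68, edgeR adjusted p = 0.0430), and both calls were lost with the replicate number as a block and without either Zfp57-/- replicate (adjusted p from 0.0927 to 0.273). Sox2ot had 77 and 46 B6 reads against 14 and 11 (-2.38, edgeR adjusted p = 0.00725) and 60 and 28 JF1 reads against 18 and 14 (-1.56, edgeR adjusted p = 0.0538). The B6 call of Sox2ot was lost without Zfp57-/- replicate 1 or 2 (adjusted p = 0.108 and 0.144). In sum, 4 of 7 were called on the JF1 allele, against 29.3% of 10977 autosomal genes, and 5 of 7 on the B6 allele, against 32.6%. The filter asked for reads in WT cells only, so genes low in Zfp57-/- cells, such as Pantr1, were kept. Allelic reads are a part of the fragments counted in bulk, so these calls are not separate from the bulk calls.

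Gas5 had more B6 than JF1 reads in every library. Its ratio was 0.408 and 0.439 in the WT replicates and 0.429 and 0.424 in the Zfp57-/- ones, each with a 95% Wilson interval below 0.5, which covers counting error only. The log2 ratio of JF1 over B6 was -0.45 in WT (edgeR adjusted p = 2.3e-07) and -0.43 in Zfp57-/- cells (3.7e-08). The 15 nearest genes with enough reads had a median ratio of 0.483 in WT and 0.470 in Zfp57-/- cells.

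Pantr1 also leaned to B6 in WT cells, with ratios of 0.343 and 0.345 from 143 and 177 reads (log2 ratio -0.93, edgeR adjusted p = 0.00102). That call was lost with DESeq2 (adjusted p = 0.282) and without either WT replicate (0.147 and 0.211). In Zfp57-/- cells only 10 and 3 allelic reads remained, with ratios of 0.400 and 0.667 and Wilson intervals from 0.168 to 0.687 and from 0.208 to 0.939, so a difference between genotypes was not detectable at this depth. Around Pantr1 the median ratio of the 15 nearest genes was 0.492 in WT and 0.620 in Zfp57-/- cells, and Pou3f3 had ratios of 0.450 and 0.511 in WT and 0.708 and 0.667 in Zfp57-/- cells, the latter from 24 and 18 reads. Over 615 genes of chromosome 1 the median was 0.490 in WT and 0.620 in Zfp57-/- cells, so the medians around Pantr1 were close to those of the chromosome. The shift did not run along all of it, since the median around Gas5 was 0.470 in Zfp57-/- cells.

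Neat1 differed between the WT replicates. Its ratio was 0.337 (Wilson interval 0.297 to 0.379, 505 reads) in WT replicate 1 and 0.511 (0.439 to 0.582, 186 reads) in WT replicate 2, so the intervals did not overlap, and it was 0.437 and 0.481 in the Zfp57-/- replicates. The log2 ratio in WT cells was -0.63 (edgeR adjusted p = 0.000472). It rested on WT replicate 1, since without that library it was 0.062 (adjusted p = 0.940), and with DESeq2 the adjusted p was 0.130.

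Malat1 had by far the most allelic reads and the smallest difference of those called. Its ratio was 0.486 and 0.487 in WT, from 69304 and 27125 reads, and 0.475 and 0.482 in Zfp57-/- cells, from 49624 and 48695 reads. The log2 ratio was -0.13 in Zfp57-/- cells (edgeR adjusted p = 0.00278) and -0.078 in WT cells (0.0873). The Zfp57-/- call was lost with DESeq2 (adjusted p = 0.142), with the allele columns scaled by TMM (0.159) and without Zfp57-/- replicate 1 (0.173). Although the level of Malat1 differed 3.27-fold between the WT replicates, the Wilson intervals of its allelic ratio overlapped (0.483 to 0.490 and 0.481 to 0.493). The nearest 15 genes had median ratios of 0.481 and 0.460.

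Miat and Tug1 were near equal shares. Miat had ratios of 0.527 and 0.509 in WT and 0.556 and 0.509 in Zfp57-/- cells, and Tug1 had 0.486 and 0.511 in WT and 0.530 and 0.512 in Zfp57-/- cells. Sox2ot had ratios of 0.438 and 0.378 in WT cells, from 137 and 74 reads, and of 0.563 and 0.560 in Zfp57-/- cells, from 32 and 25 reads. The Wilson intervals were 0.358 to 0.522 and 0.276 to 0.492 in WT and 0.393 to 0.718 and 0.371 to 0.733 in Zfp57-/- cells. They overlapped between genotypes, and the change was not called (log2 difference of the ratios 0.86, standard error 0.51, edgeR adjusted p = 0.351).

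For an allele difference, 3 of 7 genes were called in WT cells (Gas5, Neat1 and Pantr1), against 23.6% of 10977 autosomal genes, and 2 of 7 in Zfp57-/- cells (Gas5 and Malat1), against 21.8%. For a change of the ratio between genotypes, edgeR called 0 of 7, with 1 at an unadjusted p under 0.05 (Neat1), and DESeq2 called 0, against 14.5% of all genes tested by edgeR. Neat1 was called in this contrast with the allele columns scaled by TMM (adjusted p = 0.0311), without WT replicate 2 (0.000597) and without Zfp57-/- replicate 1 (0.0120), and without WT replicate 1 its sign turned (-0.29, adjusted p = 0.674).

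**Figure D4:**
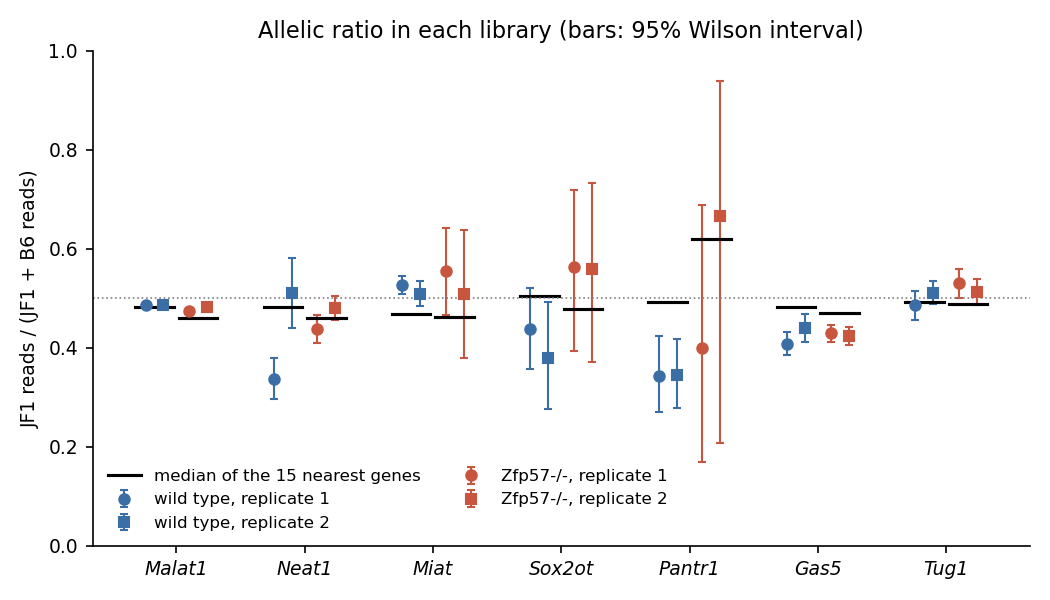
Allelic ratio (JF1 reads over JF1 plus B6 reads) of the 7 lncRNAs with allelic reads in each library, with 95% Wilson intervals; WT in blue, Zfp57-/- in red, circles replicate 1, squares replicate 2, and black lines the median of the 15 nearest genes. Gas5 lies below 0.5 in all 4 libraries, the WT replicates of Neat1 are separated, and the Zfp57-/- intervals of Pantr1 span most of the axis.

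The genes of proteins that gather with Neat1 and Malat1 RNA did not pass the test with all 4 libraries. Of 10 paraspeckle proteins, among them Sfpq, Nono and Pspc1, edgeR called 0 (1 at an unadjusted p under 0.05) and DESeq2 called 0, with log2 fold changes from -0.61 to 0.40. Of 11 nuclear speckle proteins, edgeR called 0 (0 at an unadjusted p under 0.05) and DESeq2 called 0, with values from -0.38 to 0.33. Some genes of both lists were called without WT replicate 1 or 2, where more of all genes were called too. Without WT replicate 1 the median log2 fold change was -0.19 for paraspeckle and -0.028 for nuclear speckle genes. Without WT replicate 2 these medians were -0.15 and -0.023. For the paraspeckle list, 1 gene was called lower with the Actb scale, without a filter and with the replicate block. With all 4 libraries the median was -0.23 for the first list and -0.11 for the second.

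Most other lncRNAs of neural cells that were tested fell, as did Miat, Rmst, Sox2ot and Pantr1. Of 8 such genes tested from a list of 12, 5 were lower and 0 higher, against 14.6% of all genes called lower. Their median log2 fold change was -2.23. Those not tested (Dlx6os1, Dlx1as, Pax6os1 and Nkx2-2os) had at most 1 count in any library, WT included. Mir124-2hg, a host of the neuronal microRNA miR-124, had 1210 and 932 counts in WT and 32 and 25 in Zfp57-/- cells (log2 fold change -5.31, standard error 0.33, edgeR adjusted p = 6.0e-06). Mir9-3hg, a host of miR-9, had 65 and 98 counts against 2 and 8 (-4.03, standard error 0.59, edgeR adjusted p = 0.000872). The mature microRNA made from Mir9-3, which is expressed in neural progenitors, is shown with its seed (bases 2 to 8) in capitals.
mmu-miR-9-5p, chr7:79505279-79505301, plus strand, GRCm38.p6: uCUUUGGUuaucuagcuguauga
Mature microRNAs are too short for these libraries and were not measured.

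Most lncRNAs of pluripotent cells that were tested rose. Of 10 tested from a list of 12, 7 were higher and 0 lower, against 13% of all genes called higher. The median log2 fold change was 4.76, or 3.06 with the 4 genes that had 0 counts in both WT libraries set to their bound. Platr10, named for its pluripotency-associated expression, had 0 counts in both WT libraries and 295 and 228 in Zfp57-/- cells, at least 83.6-fold higher against 3 counts per WT library. Platr22 had 0 and 1 counts against 116 and 96 (log2 fold change 7.38, edgeR adjusted p = 6.9e-05). The pluripotency markers given above moved with this list.

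Most of the other listed snoRNA host genes rose, as Gas5 did. Snhg11, a snoRNA host gene by its name, was placed in the list of neural lncRNAs instead. It fell (log2 fold change -2.71, standard error 0.56, edgeR adjusted p = 0.00622). Of the 14 tested in the snoRNA host list, 9 were higher and 0 lower, against 13% of all genes called higher. The median log2 fold change of this list was 1.21. With 1 library left out, the median ran from 0.85 (without WT replicate 2) to 1.64 (without WT replicate 1). The number called also varied, as it did over all genes. Snhg3 had 65 and 100 counts in WT and 408 and 407 in Zfp57-/- cells (log2 fold change 2.27, standard error 0.23, edgeR adjusted p = 9.3e-05), and Snhg12 had 174 and 184 against 684 and 563 (1.75, standard error 0.22, edgeR adjusted p = 0.000407). With the Actb scale only Snhg3 of this list was still called. The list median was then 0.40, which is 1.08 above the median of all genes on that scale. Host genes of this kind are known for transcripts that begin with C and a run of pyrimidines, as the messages of ribosomal proteins do, so the stretch from 10 bases before to 35 after the annotated start is shown for 1 of the 2 annotated starts of Gas5 and for these 2 genes. Capitals mark the longest pyrimidine run that opens with C within 3 bases of the start and has at least 5 bases.
Gas5, chr1:161035156-161035200, plus strand: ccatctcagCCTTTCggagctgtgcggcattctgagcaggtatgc
Snhg3, chr4:132353652-132353696, minus strand: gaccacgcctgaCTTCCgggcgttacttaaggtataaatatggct
Snhg12, chr4:132308668-132308712, plus strand: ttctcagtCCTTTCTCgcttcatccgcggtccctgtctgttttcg
Such a run was present in 6 of 16 host windows (37.5%), Gas5 included, and in 11.5% of all 32851 windows. The 16 windows belong to 14 host genes, which are not the same 14 as those tested. With a run were also Snhg7, not matched in the counts, and Snhg8, which was called higher (log2 fold change 0.83, edgeR adjusted p = 0.0209). Snhg18 had a run too and hardly changed (log2 fold change -0.023, edgeR adjusted p = 0.976). Snhg1, Snhg5, Snhg15, Snhg16 and Zfas1, all called higher, had runs under the minimum. Whether the run goes with the rise was not tested. The other annotated Gas5 start had a run of 3 bases, under the minimum. Such a run is a match of letters at an annotated start, and the starts used in these cells were not measured.

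Of 6 other widely expressed lncRNAs, 2 were higher and 1 lower, against 13% and 14.6% of all genes. Their median log2 fold change was 0.036. Lncpint had 8 and 7 counts in WT and 154 and 129 in Zfp57-/- cells (log2 fold change 4.16, standard error 0.42, edgeR adjusted p = 9.1e-05), and Dancr, itself a snoRNA host, rose by 1.13 on the log2 scale (edgeR adjusted p = 0.0156), a call lost with the Actb scale (0.38, adjusted p = 0.710) and without Zfp57-/- replicate 1 (0.96, adjusted p = 0.207). The lncRNA 1700020I14Rik, also known as Cyrano, was at 303 ± 30.9 CPM in WT and 195 ± 18.3 CPM in Zfp57-/- cells (SD, n = 2; log2 fold change -0.64, edgeR adjusted p = 0.0342). This call was lost with the Actb scale (-1.29, which is -0.61 relative to the median of all genes, adjusted p = 0.081), with the length correction (-0.47, adjusted p = 0.109) and without Zfp57-/- replicate 1 (-0.54, adjusted p = 0.455) or 2 (-0.74, adjusted p = 0.247). Calls in this list, like those over all genes, changed in number with the library left out. The list median was 0.77 without WT replicate 1 and -0.34 without WT replicate 2. It was -0.029 without Zfp57-/- replicate 1 and 0.076 without Zfp57-/- replicate 2.

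**Figure D5:**
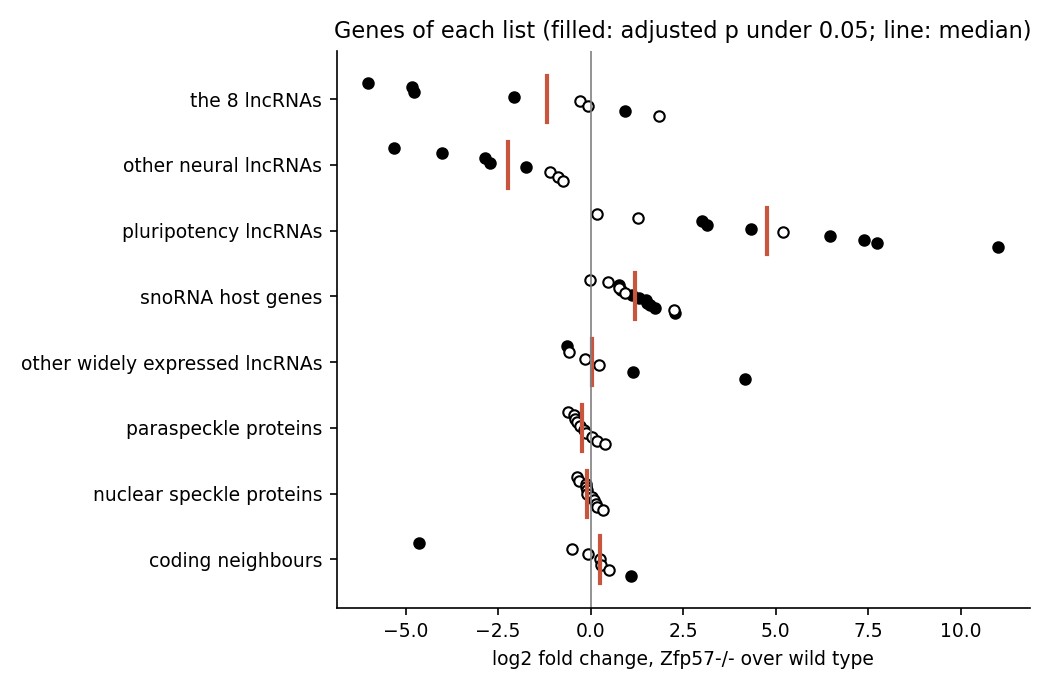
Log2 fold change of Zfp57-/- over WT cells for each gene tested in each list (filled: adjusted p under 0.05; red line: median of the list). Neural lncRNAs lie to the left of 0, pluripotency lncRNAs and most snoRNA hosts to the right, and paraspeckle and nuclear speckle proteins around 0; values of genes with 0 WT counts depend on the prior count.

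The gene whose values over the 4 libraries were nearest to each RNA (Euclidean distance of gene-centred log2 CPM among 10105 genes with a mean of at least 100 counts) was Asb4 for Malat1, Slc2a3 for Neat1, Abcd2 for Miat, Rspo2 for Rmst, Pappa for Sox2ot, Fstl5 for Pantr1, Slc25a40 for Gas5 and Timm29 for Tug1. The distance was smallest for Tug1 (0.018) and largest for Pantr1 (0.58). With 4 libraries this is a description only.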

How the data were processed

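RNA of 4 libraries (2 WT, 2 Zfp57-/-, day 12) was prepared with a stranded ribosome-depletion kit and read as 2x125 base pairs. The authors deposited raw gene counts and raw counts per allele. Their processing notes name Trimmomatic 0.36, STAR 2.5.4a, Subread 1.6.0 (featureCounts) and the build GRCm38/mm10, and per the file headers, fragments over exons were counted on the reverse strand. In both tables the deposited counts are not normalized.

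Genes with more than 8 counts over the 4 libraries were tested with edgeR 4.0.16 (robust quasi-likelihood, TMM, Benjamini-Hochberg over all genes, threshold 0.05). Standard errors are the log2 fold change over the root of F. Allele tests covered autosomal genes whose allelic count, after scaling, reached 10 in both WT replicates. Their model held each library as a block plus the JF1-over-B6 effect of each genotype, or a term per genotype and allele for the change of one allele, with library sizes of the bulk table. DESeq2 1.42.0 was an alternative. Both fits were tested on simulated data. CPM uses TMM library sizes. Levels per kilobase use exon lengths of the table. Neighbour medians use the 15 nearest genes that had 10 or more reads of known allele in all 4 libraries. Symbols from GENCODE vM21 matched 54721 of 55602 gene identifiers; Snhg4 and Snhg7 were not matched. Coordinates are GRCm38, 1-based.

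Genes named are the 8 RNAs, their coding neighbours (not all are reported here), the 2 called genes of smallest adjusted p per direction of each list, and nearest-pattern genes; examples of the paraspeckle list were picked after their values were seen. The RNAs, lists and tests were chosen with earlier results of these data known. With 2 replicates a genotype, p-values set a difference against the spread between cultures of 1 line per genotype. That spread is estimated with help from all genes. Fragments over 2 genes of 1 strand cannot be assigned with certainty.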

Additional observations from a re-analysis of the deposited data

How the results depend on the processing

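Other settings left the 4 falling RNAs called. Of the 5 genes called among the 8, Gas5 was lost with the Actb scale and without either Zfp57-/- replicate, and no call was lost in the other settings, 4 of which, leaving out no library, added Neat1. The count was 5 to 8 when 1 library was left out, 8 without WT replicate 1 (Malat1, Neat1 and Tug1 added). For all genes the 5522 calls became 3480 with the Actb scale and 2756 to 10005 with 1 library left out (7919 without WT replicate 1, 10005 without WT replicate 2, 2756 without Zfp57-/- replicate 1 and 2900 without Zfp57-/- replicate 2). Over the 7 gene lists, 26 calls became 14 and 16 to 41. The log2 fold change of Malat1 turned to 0.158 with the replicate block and 0.071 with the length correction, and ran from -0.69 to 0.99 with 1 library left out. On its JF1 allele it turned to 0.105 with the block and ran from -0.76 to 0.97, and on its B6 allele it turned to 0.147 with the block and ran from -0.71 to 1.02. Calls of an allele difference in WT cells went from 3 to 1 with DESeq2, which called 10.7% of all genes. In Zfp57-/- cells they went from 2 to 1 with DESeq2 (6.79% of all genes) and to 1 with TMM-scaled allele columns (20.6%). Calls between genotypes went from 0 to 1 with TMM-scaled columns (14.5% of all genes), where the log2 value of Malat1 turned to 0.071. These counts, and those of the JF1 and of the B6 allele, varied with 1 library left out, as did the counts over all genes. With 1 library left out, the log2 allele difference ran from -0.98 to 0.062 for Neat1 and -0.083 to 0.065 for Tug1 in WT cells and from -0.57 to 0.91 for Pantr1 in Zfp57-/- cells, and the change of the ratio from -0.29 to 0.75 for Neat1, -0.054 to 0.21 for Miat and -0.074 to 0.11 for Gas5. These fits assume that the lone library varies like the other genotype, and the cause of these shifts was not tested. Replicate numbers of the genotypes were not shown to pair cultures (correlation of the replicate differences 0.149 over 10105 genes); with the number as a block, 6 of the 8 were called, Neat1 being added, and 6984 of all genes. The order of levels kept 16 of 16 places with other scalings and 14 to 16 with 1 library left out. Depth limits the allelic values of Pantr1 and Sox2ot in Zfp57-/- cells and precludes any for Rmst.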
